A study of Homo sapiens with 9 samples.

Results

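The coagulation genes described here are 10 genes named by symbol, by a rule that uses no measured value but was set with earlier results of these data known: the clotting factors F2, F5, F7, F10, F11, F12 and F13B and the natural anticoagulants PROC, PROS1 and SERPINC1. All 10 were among the 57773 features of the files, and all 10 were among the 12901 with enough reads to be tested. F12 and F13B had few reads, and passed the filter on low counts through the libraries in which they were higher.

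HepG2 is an established human hepatocellular carcinoma line, kept below 25 passages. TBOEP, tris(2-butoxyethyl) phosphate, is an organophosphate plasticiser and flame retardant. The groups were cells given 0.1% DMSO alone, 2.5 µM TBOEP or 125 µM TBOEP, with TBOEP also given in 0.1% DMSO, and each exposure lasted 72 h. Per the labels each group had 3 separately seeded cultures, made into 1 RNA library each, and neither concentration was cytotoxic.

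In blood, a cascade of proteases turns prothrombin into thrombin, which cuts fibrinogen into fibrin and activates the factor that crosslinks the clot. Tissue factor with factor VII starts the cascade from outside the vessel, the contact system with factors XII and XI starts it from a surface, and both routes meet at factor X and its cofactor, factor V. Protein C with its cofactor protein S and the serpin antithrombin hold it in check. Hepatocytes secrete most of these proteins, and factors II, VII and X and proteins C and S need vitamin K to be carboxylated before they work.

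At 125 µM TBOEP, 6 of the 10 coagulation genes differed from DMSO at an adjusted p under 0.05 in edgeR's quasi-likelihood test, beside 40.2% of all genes tested. F7, the protease of the tissue factor pathway, and SERPINC1, the antithrombin gene, were higher, 2 genes beside a background of 20.3% called higher. F5, F11, F13B and PROS1 were lower, 4 genes beside a background of 19.9% called lower. The median log2 fold change of the 10 genes was -0.41, against 0.00356 for all genes tested, and single genes ranged from -2.31 to 0.88. At 2.5 µM 1 gene, F5, passed against DMSO, beside 11% of all genes. The 10 genes together took 0.188% ± 0.00428 of all gene reads with DMSO, 0.18% ± 0.0111 of those at 2.5 µM and 0.16% ± 0.00161 of those in cells given 125 µM (mean ± SD over 3 libraries a group). In these bulk samples fewer cells with a transcript and less transcript per cell cannot be told apart.

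The libraries held between 2480964 and 11885877 gene reads. A count of 3 reads equalled 0.249 CPM (reads scaled to library size by TMM) in the deepest library and 1.21 CPM in the shallowest. On the first principal component, with 53.5% of the variance, the DMSO libraries lay between 24.8 and 50.0. The 2.5 µM libraries were at 9.28, 9.08 and -17.7, and the one that stood apart was replicate 3, the shallowest of all. The 125 µM libraries lay between -39.8 and -30.7. Reads from introns of nuclear genes made up 6.87% ± 0.628 with DMSO, 6% ± 1.52 in cells given 2.5 µM and 5.23% ± 0.298 in those given 125 µM (mean ± SD over 3 libraries a group), and their part in the results below was not tested.

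The promoters shown are those of the adjacent genes F7 and F10, of which F7 rose and F10 did not pass at 125 µM against DMSO, and of F11, F13B and PROS1, which fell. Each runs from 250 bases before to 10 bases after the RefSeq start on GRCh38.p14, 5′ to 3′ on the gene's own strand. F7 is at chr13:113105541-113105800 and F10 at chr13:113122549-113122808, both on the plus strand. F11 is at chr4:186265939-186266198 on the plus strand, F13B at chr1:197067251-197067510 on the minus strand and PROS1 at chr3:93973887-93974146 on the minus strand. Capitals mark letters that match a motif of a liver transcription factor, as described after the sequences.
F7: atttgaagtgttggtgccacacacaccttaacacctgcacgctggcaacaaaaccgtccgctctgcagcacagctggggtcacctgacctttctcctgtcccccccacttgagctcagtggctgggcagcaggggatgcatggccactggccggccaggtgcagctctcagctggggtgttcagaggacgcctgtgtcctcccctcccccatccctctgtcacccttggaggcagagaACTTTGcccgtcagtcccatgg
F10: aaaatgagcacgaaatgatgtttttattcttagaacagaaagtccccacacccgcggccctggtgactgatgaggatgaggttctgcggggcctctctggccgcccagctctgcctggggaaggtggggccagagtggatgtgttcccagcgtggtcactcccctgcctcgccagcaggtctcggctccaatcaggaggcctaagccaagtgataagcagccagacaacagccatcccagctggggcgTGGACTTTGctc
F11: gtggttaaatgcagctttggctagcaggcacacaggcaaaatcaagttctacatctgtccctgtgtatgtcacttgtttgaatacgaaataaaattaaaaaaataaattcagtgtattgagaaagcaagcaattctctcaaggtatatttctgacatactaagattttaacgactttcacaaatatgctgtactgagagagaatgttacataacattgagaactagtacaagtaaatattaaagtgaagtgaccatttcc
F13B: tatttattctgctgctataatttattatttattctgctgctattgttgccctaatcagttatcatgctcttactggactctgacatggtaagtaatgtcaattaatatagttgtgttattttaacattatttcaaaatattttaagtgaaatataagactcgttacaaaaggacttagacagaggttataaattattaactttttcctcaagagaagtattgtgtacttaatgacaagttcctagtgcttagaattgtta
PROS1: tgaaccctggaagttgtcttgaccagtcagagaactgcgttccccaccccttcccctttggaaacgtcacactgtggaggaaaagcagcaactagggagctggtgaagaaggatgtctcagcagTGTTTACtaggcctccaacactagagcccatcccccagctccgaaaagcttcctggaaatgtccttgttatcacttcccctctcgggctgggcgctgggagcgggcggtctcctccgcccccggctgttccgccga

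The motifs were searched on both strands in 35116 RefSeq windows of the same 260 bases, and 9 of the 10 genes, all but SERPINC1, had a window. The HNF4 site, searched as TGNACTTTG or CAAAGTNCA, was in 0.98% of all windows, and among the 9 genes in that of F10, with its first letter at position -2 from the start. Its core alone, ACTTTG or CAAAGT, lies within that site and was in 10.7% of all windows; F7 held a core at position -12 without the full site. A FOXA site, TGTTTAC or GTAAACA, was in 3.11% of windows and in the PROS1 window at -126. The F11 and F13B windows held no match to these letters. A match describes the letters of a window and not a bound factor.

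F12 encodes factor XII, the zymogen of contact activation. It had 2.73, 1.58 and 1.54 CPM with DMSO, 2.87, 1.67 and 0.808 CPM at 2.5 µM, and 1.46, 0.996 and 1.47 CPM at 125 µM. The 125 µM libraries all lay below the DMSO libraries, but rested on 28 reads in all, against 40 with DMSO. The log2 fold change at 125 µM against DMSO was -0.76 ± 0.42 (SE), with a 95% interval of -1.66 to 0.14 and an adjusted p of 0.168. F12 overlaps GRK6 on the opposite strand, which had 1061 reads in all against 118 for F12. Reads of the overlapping stretch cannot be told apart unless counting used strand. On spliced reads alone, which cross exon borders (chosen after the data were seen), F12 had -0.95 ± 0.47 at 125 µM against DMSO (edgeR, adjusted p = 0.123).

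F11 encodes factor XI, which the contact system and thrombin activate. F11 had 88.5, 72.2 and 86.7 CPM with DMSO, 79.6, 61.7 and 44.03 CPM at 2.5 µM, and 36.2, 34.8 and 36.0 CPM at 125 µM. The 125 µM libraries lay close together, below every other library, whereas the 2.5 µM libraries spread widely and overlapped those with DMSO. F11 fell 2.32-fold at 125 µM against DMSO (adjusted p = 4.46e-05) and 1.80-fold against 2.5 µM (adjusted p = 0.00233). Its log2 fold change at 2.5 µM against DMSO was -0.37 ± 0.15, with an interval of -0.68 to -0.06 and an adjusted p of 0.115; without the 2.5 µM library of replicate 1 it was -0.59 (adjusted p = 0.0135), and with no filter on low counts its adjusted p was 0.0115. In 18 of 20 alternatives F11 did not pass at 2.5 µM against DMSO, with changes as small as -0.22 on the log2 scale. On RPKM the call at 125 µM against 2.5 µM was lost (adjusted p = 0.0583).

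F11 lies on chromosome 4, 187187099 to 187210835 (hg19), and its end overlaps F11-AS1, an antisense transcript on the opposite strand. F11-AS1 had 822 reads in all libraries together, against 3967 for F11. It fell as well, by 1.74 ± 0.20 on the log2 scale at 125 µM against DMSO (adjusted p = 2.15e-05), by 0.83 ± 0.18 at 2.5 µM against DMSO (adjusted p = 0.0134) and by 0.92 ± 0.21 at 125 µM against 2.5 µM (adjusted p = 0.00869). Reads of the overlapping stretch cannot be told apart unless counting used strand. On spliced reads alone, which cross exon borders (chosen after the data were seen), F11 fell by 1.30 ± 0.16 at 125 µM against DMSO (adjusted p = 4.33e-06).

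F7 encodes factor VII, the partner of tissue factor. F7 had 16.4, 22.2 and 33.9 CPM with DMSO, 37.2, 29.2 and 34.7 CPM at 2.5 µM, and 42.6, 45.9 and 36.7 CPM at 125 µM. The DMSO library of replicate 3 was high among its group and lay within the 2.5 µM range, while the 125 µM libraries all lay above DMSO. F7 rose by 0.88 ± 0.19 on the log2 scale at 125 µM against DMSO (adjusted p = 0.00246). At 2.5 µM the log2 fold change was 0.54 ± 0.20, with an interval of 0.12 to 0.96 and an adjusted p of 0.0884; without the DMSO library of replicate 3 it was 0.83 (adjusted p = 0.0258). It also passed on exon reads (adjusted p = 0.0482) and with no filter (adjusted p = 0.00116). In the other 17 of 20 alternatives F7 did not pass at 2.5 µM, with changes as small as 0.28 on the log2 scale. Between 125 and 2.5 µM the log2 fold change was 0.34 ± 0.18 (adjusted p = 0.237).

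F10 encodes factor X, the protease of the prothrombin-cleaving complex. F10 had 167, 159 and 164 CPM with DMSO, 185, 166 and 175 CPM at 2.5 µM, and 139.6, 153 and 129 CPM at 125 µM. The 125 µM libraries were the lowest of each set, and did not overlap with DMSO or with 2.5 µM. F10 fell by 0.31 ± 0.09 at 125 µM against 2.5 µM (adjusted p = 0.0239), a call that was lost without the 125 µM library of replicate 1 or 3 or without the 2.5 µM library of replicate 1 (adjusted p = 0.0856, 0.0989 and 0.0781). Against DMSO the log2 fold change was -0.21 ± 0.09 (interval -0.39 to -0.03, adjusted p = 0.065). On exon reads it was -0.30 ± 0.09 (adjusted p = 0.0117). In 18 of 20 alternatives F10 did not pass at 125 µM against DMSO, with changes as small as -0.15.

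F5 encodes factor V, the cofactor of factor X. F5 had 678, 535 and 609.8 CPM with DMSO, 488, 489 and 442 CPM at 2.5 µM, and 378, 391 and 424 CPM at 125 µM. The 3 groups formed steps that did not overlap, with DMSO highest and 125 µM lowest. F5 fell 1.53-fold at 125 µM against DMSO (adjusted p = 0.000212). It was the one gene of the 10 to pass at 2.5 µM against DMSO, 1.28-fold lower with a log2 interval of -0.56 to -0.16 (adjusted p = 0.0283), and that call was lost without the 2.5 µM library of replicate 3 (log2 fold change -0.31, adjusted p = 0.115), the DMSO library of replicate 1 (-0.27, adjusted p = 0.160) or the DMSO library of replicate 3 (-0.35, adjusted p = 0.0781). It was lost as well on RPKM (adjusted p = 0.071), with only the groups compared in the fit (adjusted p = 0.0695) and on spliced reads. Between 125 and 2.5 µM the log2 fold change was -0.25 ± 0.10 (adjusted p = 0.0911).

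F2 encodes prothrombin and was the most abundant of the 10. F2 had 648, 588 and 619 CPM with DMSO, 675, 649 and 635 CPM at 2.5 µM, and 645, 626 and 574 CPM at 125 µM. The groups overlapped throughout. At 125 µM against DMSO the log2 fold change was -0.01 ± 0.08 (adjusted p = 0.965), with an interval of -0.18 to 0.17; the other 2 comparisons gave 0.08 ± 0.08 at 2.5 µM against DMSO (adjusted p = 0.573) and -0.08 ± 0.08 at 125 against 2.5 µM (adjusted p = 0.534).

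F13B encodes the carrier subunit of factor XIII, the enzyme that crosslinks fibrin. F13B had 2.73, 3.56 and 1.54 CPM with DMSO, 3.35, 1.86 and 2.02 CPM at 2.5 µM, and 0.607, 0.415 and 0.734 CPM at 125 µM, from 50 reads with DMSO, 60 at 2.5 µM and 12 at 125 µM. All 125 µM libraries lay below all others. F13B fell 4.96-fold at 125 µM against DMSO (log2 -2.31 ± 0.46, adjusted p = 0.00113) and 4.65-fold against 2.5 µM (adjusted p = 0.00464); the second call was lost without the 125 µM library of replicate 2 (adjusted p = 0.0552). On log2(RPKM + 0.5), which shrinks low genes, the change against DMSO was -0.89 (adjusted p = 0.0352) and that against 2.5 µM -0.87 (adjusted p = 0.0891).

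**Figure D1:**
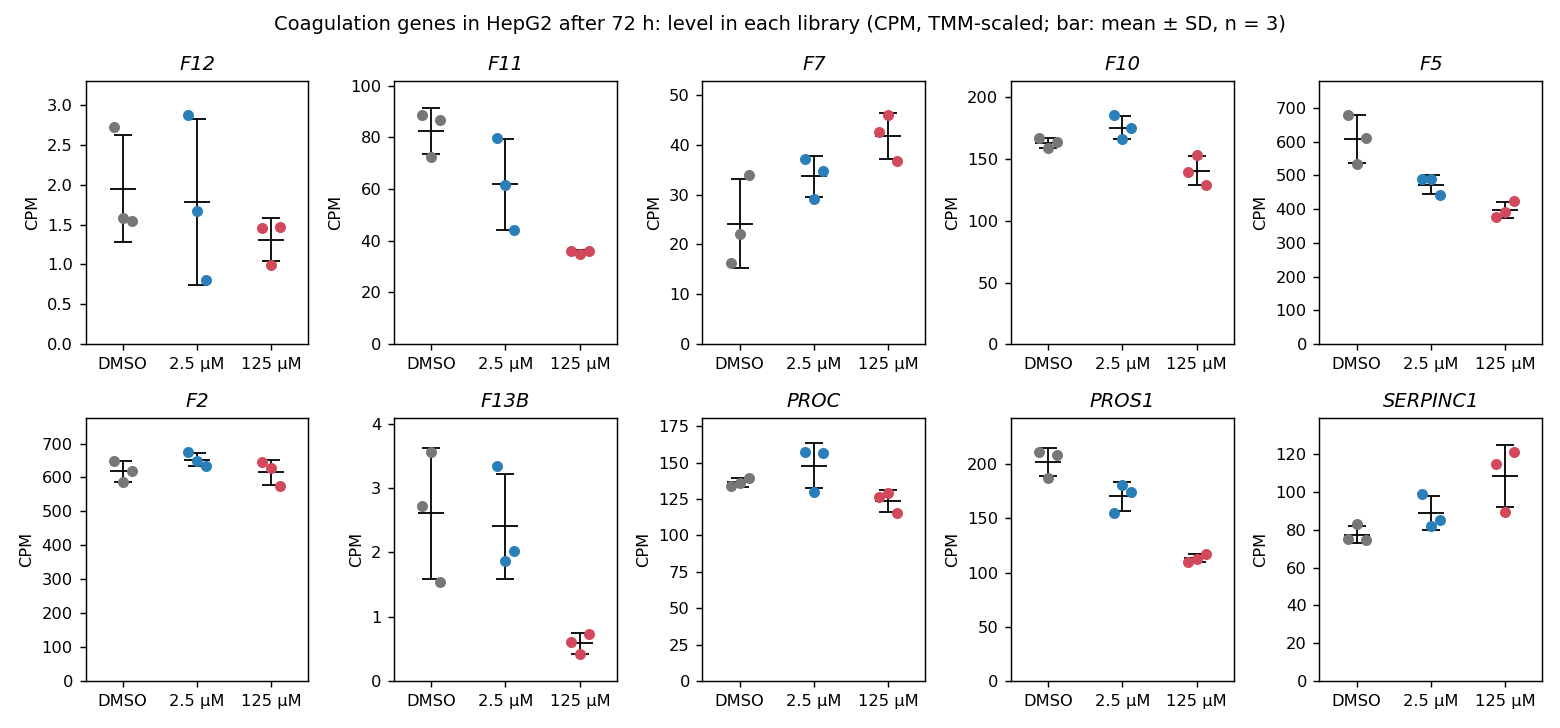
Level of each of the 10 genes in every library, in CPM on a linear axis from 0, by TBOEP concentration; points are libraries and bars the mean ± SD of 3. F5, F11 and PROS1 are lowest at 125 µM, where F7 and SERPINC1 lie above all DMSO libraries; the F11 libraries at 2.5 µM overlap those with DMSO, and F2 lies between 574 and 675 CPM.

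PROC encodes protein C, the protease that inactivates factors V and VIII. PROC had 134, 136 and 139.8 CPM with DMSO, 157, 130.1 and 157 CPM at 2.5 µM, and 126, 129 and 115 CPM at 125 µM. The 125 µM libraries were the lowest without overlap, by a small margin. The log2 fold change at 125 µM was -0.14 ± 0.09 against DMSO (interval -0.33 to 0.06, adjusted p = 0.253) and -0.25 ± 0.09 against 2.5 µM (adjusted p = 0.081). Without the 2.5 µM library of replicate 2 the comparison with 2.5 µM passed, at -0.34 (adjusted p = 0.0361). In the other 19 of 20 alternatives it did not pass, with changes as small as -0.17.

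PROS1 encodes protein S, the cofactor of protein C. PROS1 had 211, 187 and 208 CPM with DMSO, 155, 181 and 175 CPM at 2.5 µM, and 109.9, 113 and 117 CPM at 125 µM. The 3 groups did not overlap, and the 125 µM libraries lay well below the rest. PROS1 fell 1.79-fold at 125 µM against DMSO (adjusted p = 1.09e-05) and by 0.59 ± 0.09 on the log2 scale against 2.5 µM (adjusted p = 0.000624). At 2.5 µM against DMSO the log2 fold change was -0.25 ± 0.09 (interval -0.43 to -0.07, adjusted p = 0.0729); it passed on exon reads (adjusted p = 0.0311) and without the DMSO library of replicate 2 (adjusted p = 0.0386). In the other 18 of 20 alternatives PROS1 did not pass at 2.5 µM against DMSO, with changes as small as -0.18 on the log2 scale. PROS1 has a close relative, the pseudogene PROS2P, so its reads are uncertain to the extent that they were shared.

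SERPINC1 encodes antithrombin, the serpin that blocks thrombin and factor X. SERPINC1 had 74.9, 82.9 and 74.7 CPM with DMSO, 99.1, 82.1 and 85.2 CPM at 2.5 µM, and 115, 89.6 and 121 CPM at 125 µM. The 125 µM library of replicate 2 was lower than the other two but still above DMSO. SERPINC1 rose by 0.47 ± 0.12 on the log2 scale at 125 µM against DMSO (adjusted p = 0.00481). The log2 fold change was 0.20 ± 0.12 at 2.5 µM against DMSO (adjusted p = 0.275) and 0.27 ± 0.11 at 125 against 2.5 µM (adjusted p = 0.130), which became 0.40 (adjusted p = 0.0468) without the 125 µM library of replicate 2. In the other 19 of 20 alternatives the comparison of 125 with 2.5 µM did not pass, with changes as small as 0.19.

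Counted together, the libraries of 125 µM and DMSO did not overlap for 9 of the 10 genes, beside 50.9% of all genes. Of these 2 were higher, beside 25.6%, and 7 lower, beside 25.2%. At 2.5 µM against DMSO, 1 of 10 genes was called beside a background of 11%, and the libraries did not overlap for 2 genes, F5 and PROS1, both lower, beside 28.2% of all genes and 13.8% lower. In that comparison 0 genes were called higher by edgeR, beside 6.02% of all genes, and 1 lower, beside 5.03%. Of the 10, 1 higher and 3 lower had an unadjusted p under 0.05; DESeq2 called 0 higher and 1 lower. At 125 against 2.5 µM, F10, F11, F13B and PROS1 were lower, 4 of 10 beside a background of 14.9%, or of 7.44% called lower and 7.48% called higher. The libraries did not overlap for 6 genes there, all lower, beside 32.8% of all genes, 15.9% lower and 16.9% higher. No gene was called higher there by edgeR (0) or DESeq2 (0), and SERPINC1 was the 1 gene higher at an unadjusted p under 0.05. The comparisons share libraries, 125 and 2.5 µM the DMSO ones, so their values are not independent.

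**Figure D2:**
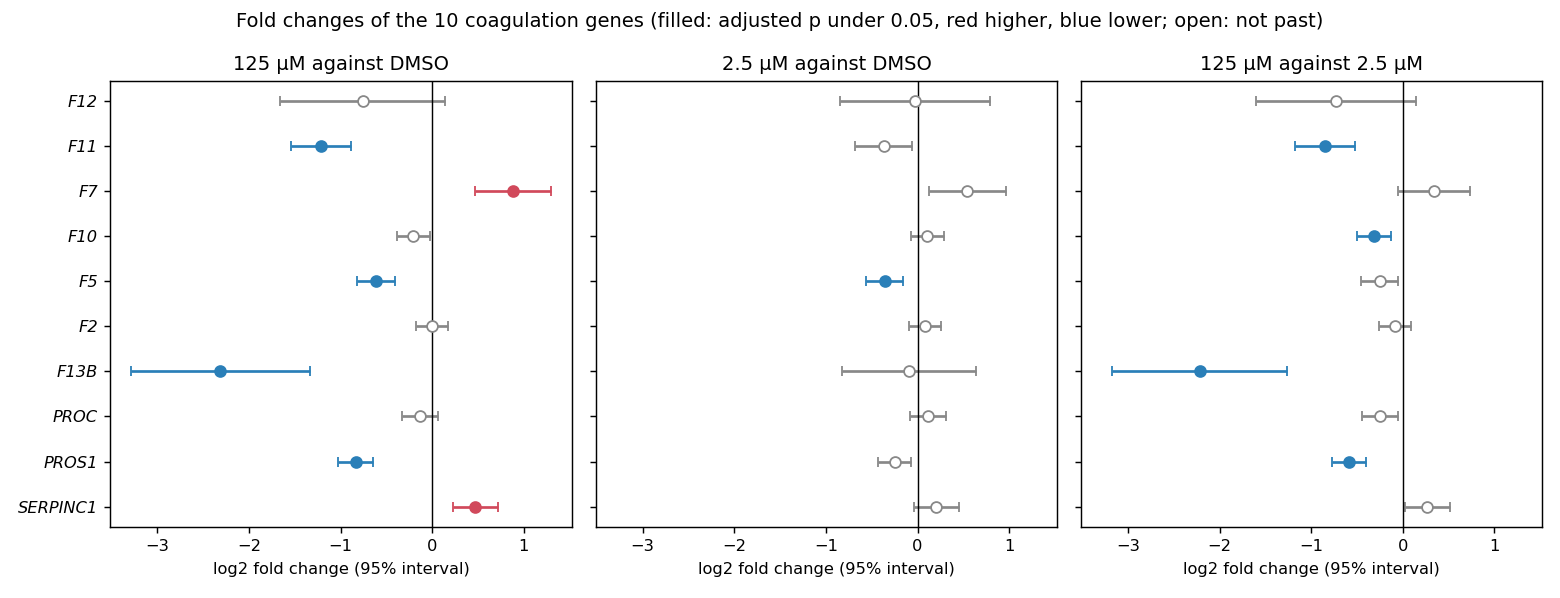
Log2 fold change with its 95% interval for each of the 10 genes in the 3 comparisons; filled points passed an adjusted p of 0.05. At 125 µM against DMSO, F7 and SERPINC1 lie to the right at 0.88 and 0.47, and F13B is farthest left at -2.31 with a wide interval.

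Of the 5 genes whose proteins need vitamin K, F7 rose and PROS1 fell at 125 µM, while F2, F10 and PROC did not pass. Of the 3 anticoagulant genes PROS1 fell, SERPINC1 rose and PROC did not pass.

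Levels per exon length were compared with the deposited RPKM, as means of 3 libraries. At 125 µM F2 led at 235 RPKM, followed by SERPINC1 at 61.4 and F5 at 53.3, which overlapped, F10 at 47.3 and PROC at 42.3, which overlapped, and PROS1 at 25.1. F7 at 9.90 ± 0.791 RPKM (SD) then lay above F11 at 6.67 ± 0.417 without overlap, and F12 at 0.474 and F13B at 0.195 came last. With DMSO the order was F2 at 224 RPKM, F5 at 75.7, F10 at 53.8, then PROS1 at 43.1, SERPINC1 at 42.0 and PROC at 40.1, whose ranges overlapped in turn. F11 at 14.3 RPKM there lay above F7 at 4.90, and F13B at 0.826 and F12 at 0.674 overlapped. At 2.5 µM F11, at 11.1 RPKM, was also above F7, at 7.62.

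**Figure D3:**
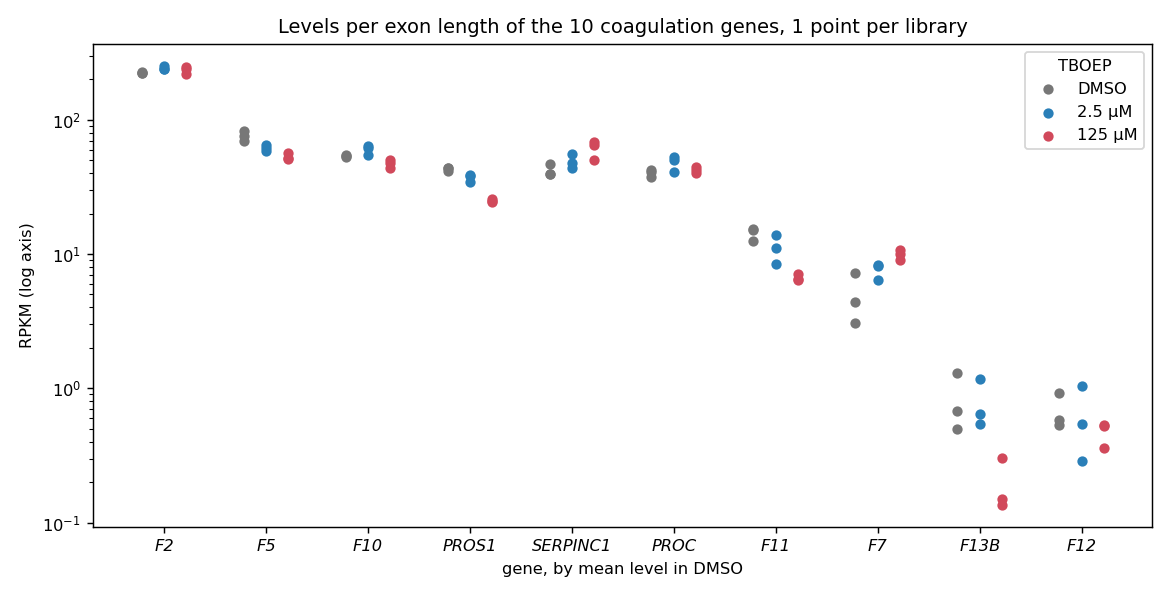
RPKM per library on a log axis for each of the 10 genes, in order of their DMSO mean. F2 lies at 220.2 RPKM or more in every library, F12 and F13B lie near or below 1 RPKM, and F7 and F11 change places at 125 µM.

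F7 and F10 lie side by side on chromosome 13, at 113760105 to 113774995 and 113777128 to 113803843 (hg19), 2132 bases apart on the plus strand. F7 rose at 125 µM against DMSO while F10 did not pass. PROZ, the gene of protein Z, an anticoagulant cofactor, begins 9124 bases beyond F10 and fell by 0.77 ± 0.17 on the log2 scale (adjusted p = 0.00281). KLKB1, the prekallikrein gene of the contact system, lies 7473 bases from F11 and fell by 2.76 ± 0.55 at 125 µM against DMSO (adjusted p = 0.00126), with means of 0.314 CPM at 125 µM and 2.15 CPM with DMSO. These rest on 7 reads at 125 µM and 40 with DMSO, of which introns held 85.7% and 70%, and KLKB1 passed the filter through the libraries in which it was higher. Among the 18 nearest tested genes that flank the 10, 3 were higher, 5 lower and 10 did not pass at 125 µM against DMSO, beside 20.3% of all genes called higher and 19.9% lower. At 2.5 µM against DMSO 0 of the 18 passed in edgeR, beside 11% of all genes, with 3 lower at an unadjusted p under 0.05.

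Introns supplied a different share of reads in each gene. PROC had 25.5, 23.0 and 23.7% intron reads with DMSO, 20.8, 17.7 and 14.7% at 2.5 µM, and 16.6, 14.4 and 13.4% at 125 µM, and the 125 µM and DMSO libraries did not overlap. F7 had 11.4, 12.1 and 7% at 125 µM, against 23.7, 25 and 15.2% with DMSO. F2 had 2.90, 2.37 and 2.94% at 125 µM, against 4.45, 3.91 and 3.61% with DMSO, again without overlap. The intron share over all nuclear genes was likewise lower without overlap, at 4.91 to 5.50% at 125 µM and 6.14 to 7.24% with DMSO. F10 had 20, 22.2 and 20.5% at 125 µM, against 18.7, 19.0 and 20.5% with DMSO, and these libraries overlapped.

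**Figure D4:**
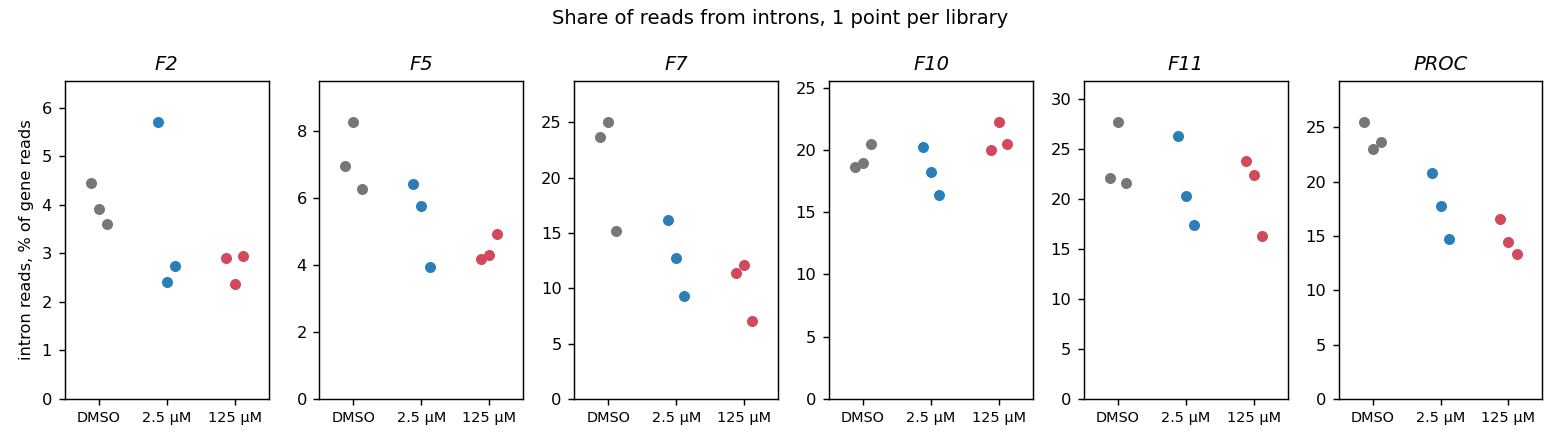
Percent of each gene's reads that lie in introns, 1 point per library, by TBOEP concentration, for 6 of the 10 genes. PROC lies at 13.4 to 16.6% at 125 µM and at 23.0 to 25.5% with DMSO, and F10 lies between 16.4 and 22.2% in all 9 libraries.

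A fit to intron reads alone, added after the values were seen, covered 8520 genes and called 17.2% of them at 125 µM against DMSO. F5 and F11 fell in it, by 0.84 ± 0.19 and 0.88 ± 0.20 on the log2 scale (adjusted p = 0.00237 and 0.00289). F11-AS1, which fell as well, overlaps the end of F11, and intron reads there cannot be told apart unless counting used strand. PROS1, which fell on all reads, had an intron change of -0.06 ± 0.30 (adjusted p = 0.932), and introns held 1.79 to 2.22% of its reads with DMSO. F7 had 0.48 ± 0.26 (adjusted p = 0.227), F10 0.37 ± 0.19 (adjusted p = 0.178), PROC -0.36 ± 0.18 (adjusted p = 0.180) and F2 -0.11 ± 0.20 (adjusted p = 0.779). On intron reads 1.1% of genes were called at 2.5 µM against DMSO and 4.32% at 125 against 2.5 µM, and the smallest adjusted p of these 7 genes was 0.192, for F5, and 0.0974, for F11.

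The 10 genes were set beside further coagulation genes, whose counts of calls at 125 µM against DMSO stand beside 20.3% of all genes called higher and 19.9% lower. Of 10 procoagulant partners 8 were tested, and 4 fell, 0 rose and 4 did not pass at 125 µM against DMSO, with a median log2 fold change of -0.46, against 0.00356 for all genes tested; changes of genes in this and the other lists are on the log2 scale. On RPKM limma called 1 of the 8. FGB, the fibrinogen beta chain, had 56.3 to 77.7 CPM at 125 µM and 196 to 264 CPM with DMSO, and fell by 1.72 ± 0.15 (adjusted p = 2.69e-06). FGA, the alpha chain, fell by 0.62 ± 0.16 (adjusted p = 0.00652), and KLKB1 fell as given above. VWF, the carrier of factor VIII, had 0.166 to 1.47 CPM at 125 µM and 0.594 to 3.25 CPM with DMSO, which overlapped, and fell by 2.04 ± 0.67 (adjusted p = 0.0243). The VWF call rests on 11 reads at 125 µM and 41 with DMSO, where the SD of 1.33 CPM stood beside a mean of 1.88 CPM. F9, which encodes factor IX and was named after its values were seen, had 0 reads in all 9 libraries. At 2.5 µM 0 of the 8 passed in edgeR, with 2 higher and 1 lower at an unadjusted p under 0.05, and 1 passed in DESeq2.

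Of 12 inhibitors and anticoagulant receptors 9 were tested, and 2 rose, beside 20.3% of all genes, 5 fell, beside 19.9%, and 2 did not pass at 125 µM against DMSO, with a median of -0.42. SERPINE2, a thrombin inhibitor of tissues, rose by 1.51 ± 0.15 (adjusted p = 6.33e-06). A2M, the broad protease inhibitor alpha-2-macroglobulin, fell by 1.63 ± 0.22 (adjusted p = 6.52e-05), and SERPIND1, heparin cofactor II, by 0.43 ± 0.08 (adjusted p = 0.000704). At 2.5 µM against DMSO SERPINE2 had also risen, by 0.78 ± 0.15 (adjusted p = 0.00864), and A2M had fallen by 0.92 ± 0.21 (adjusted p = 0.0171).

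Of 7 genes of fibrinolysis 6 were tested, and 1 rose, beside 20.3% of all genes, 3 fell, beside 19.9%, and 2 did not pass at 125 µM against DMSO, with a median of -0.52. CPB2, the carboxypeptidase that protects fibrin, had 37.3 to 39.3 CPM at 125 µM and 107 to 147 CPM with DMSO, and fell by 1.72 ± 0.13 (adjusted p = 1.48e-06). SERPINF2, the plasmin inhibitor, fell by 0.40 ± 0.09 (adjusted p = 0.00239). PLAU, the urokinase gene, fell by 2.65 ± 0.55 (adjusted p = 0.00158), whereas PLAUR, its receptor, rose by 2.30 ± 0.39 (adjusted p = 0.000364). Both were at single-digit CPM, with 22 PLAU reads at 125 µM and 122 with DMSO, and 70 PLAUR reads at 125 µM and 11 with DMSO. Each passed the filter on low counts through the libraries in which it was higher.

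Of 6 genes of the vitamin K cycle, propeptide cleavage and secretion, all tested, 1 rose, beside 20.3% of all genes, 2 fell, beside 19.9%, and 3 did not pass at 125 µM against DMSO, with a median of -0.21. DESeq2 called 2 of them and limma on RPKM 1; 2 were called without any 1 of the 125 µM libraries or without the DMSO library of replicate 1 or 3. GGCX, which carboxylates the vitamin K-dependent factors, had 42.9 to 50.0 CPM at 125 µM and 72.0 to 91.1 CPM with DMSO, and fell by 0.84 ± 0.13 (adjusted p = 0.000162). FURIN, a protease that removes propeptides, fell by 1.56 ± 0.32 (adjusted p = 0.00158), and VKORC1L1, a vitamin K reductase, rose by 0.35 ± 0.13 (adjusted p = 0.0405).

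Of 10 transcription factors known at promoters of liver coagulation genes 9 were tested, and 2 rose, beside 20.3% of all genes, 3 fell, beside 19.9%, and 4 did not pass at 125 µM against DMSO, with a median of -0.07. On spliced reads 1 passed. PPARGC1A, a coactivator of HNF4A and nuclear receptors, had 83.7 to 84.9 CPM at 125 µM and 49.9 to 53.1 CPM with DMSO, and rose by 0.72 ± 0.08 (adjusted p = 2.58e-05). CEBPB rose by 0.65 ± 0.12 (adjusted p = 0.000674), while ONECUT1 fell by 0.93 ± 0.22 (adjusted p = 0.00397) and the nuclear receptor NR5A2 by 3.30 ± 0.58 (adjusted p = 0.000514). NR5A2 had 0.728 to 0.83 CPM at 125 µM, from 18 reads, and 1.39 to 11.6 CPM with DMSO, from 155 reads, and passed the filter through the libraries in which it was higher. HNF4A, whose motif was searched above, had a change of 0.10 ± 0.09 (adjusted p = 0.378) and was named after its values were seen.

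These lists were also counted in the other comparisons. At 2.5 µM against DMSO, where 6.02% of all genes were called higher and 5.03% lower, 1 of 6 tested genes of fibrinolysis was higher (PLAUR) and 2 were lower (CPB2 and PLAU). PLAUR and PLAU had 38 and 19 reads at 2.5 µM, and each passed the filter through the libraries in which it was higher. Leaving out the DMSO library of replicate 1 gave 0 calls in that list and leaving out the 2.5 µM library of replicate 3 gave 1; DESeq2 called 1 of the 2 to which it gave an adjusted p. FURIN of the vitamin K list and NR5A2 of the transcription factors were lower, but their libraries overlapped those with DMSO, and DESeq2 called 0 in either list. Both lists had 0 calls without the 2.5 µM library of replicate 3 or without the DMSO library of replicate 1 or 3, the vitamin K list also without the 2.5 µM library of replicate 1, while it had 3 without the DMSO library of replicate 2. On RPKM limma called 0 in each of the 5 lists at 2.5 µM.

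At 125 against 2.5 µM, where 7.48% of all genes were called higher and 7.44% lower, 4 of 8 procoagulant partners were lower, FGA, FGB, FGG and KLKB1, with 3 or 4 called without any 1 library. The KLKB1 libraries overlapped, and its call (edgeR, adjusted p = 0.0482) rested on 7 reads at 125 µM and 28 at 2.5 µM. Of 9 inhibitors 2 were higher and 3 lower; 3 in all were called by DESeq2 and without any 1 of the 125 µM libraries or the 2.5 µM library of replicate 1 or 2. Of 6 genes of fibrinolysis 2 were lower, as without any 1 library. GGCX was lower, though its libraries overlapped. Its call was lost without the 125 µM library of replicate 2 or 3 or the 2.5 µM library of replicate 2. Of 9 transcription factors PPARGC1A and CEBPB were higher and FOXA1 and ONECUT1 lower, with 2 called without the 125 µM library of replicate 1 or 2 and 0 on spliced reads. FGG, the fibrinogen gamma chain, and FOXA1 were named after their values were seen.

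**Figure D5:**
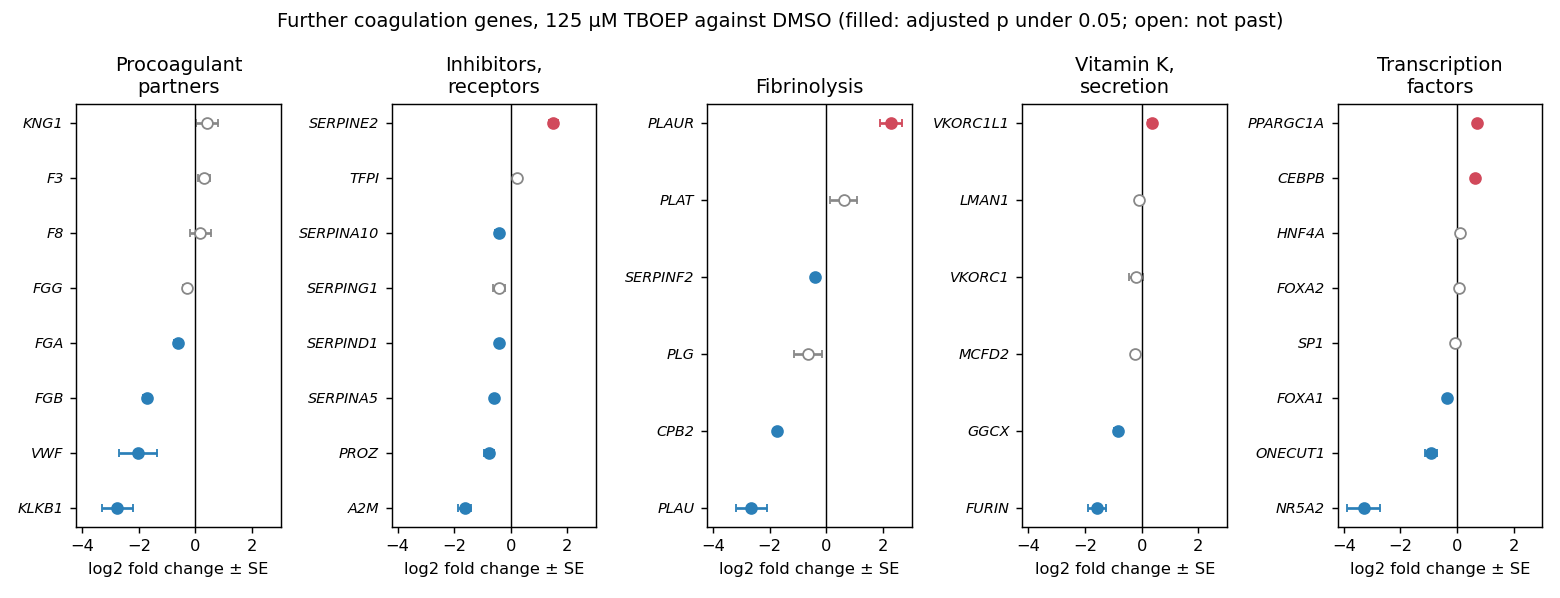
Log2 fold change ± SE at 125 µM against DMSO for tested genes of the 5 further lists; filled points passed an adjusted p of 0.05. SERPINE2 lies to the right at 1.51, and FGB and CPB2 lie to the left at -1.72; the widest bars belong to genes with few reads, VWF, NR5A2, KLKB1 and PLAU.

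Over the 9 libraries the genes varied together in part, given here as Pearson r of log2 CPM. F5 and F11 had r = 0.917, F10 and PROC r = 0.902, and F5 and PROS1 r = 0.899, while PROS1 and SERPINC1 had r = -0.857 and F5 and F7 r = -0.82. These points share the 3 groups and the library scaling. Among the genes outside the 10 most like their mean standardised profile were HNRNPL (r = 0.97), an RNA-binding protein, ARHGEF10L (r = 0.965), PIF1 (r = 0.964) and PBX3 (r = 0.957), over the same 9 libraries. That mean does not stand for each of the 10: F7 had r = -0.42 to it and SERPINC1 r = -0.51, and the others 0.63 to 0.88.

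The tissue label was checked against marker genes. All 10 hepatocyte markers were tested, and at 125 µM against DMSO 1 rose, beside 20.3% of all genes, 6 fell, beside 19.9%, and 3 did not pass. Summed, the 10 had 66528 to 89565 CPM with DMSO, 55595 to 67581 CPM at 2.5 µM and 41230 to 47858 CPM at 125 µM. The sum follows the most abundant of these markers. FGB, among the 6 that fell, was also counted with the procoagulant partners. Of 8 endothelial markers 7 were in the files and 3 were tested: ESAM and TIE1 rose and VWF fell, with few reads and overlapping libraries as given above. TIE1, with 56 reads at 125 µM and 8 with DMSO, passed the filter through the libraries in which it was higher. The endothelial sum was 2.97 to 5.98 CPM with DMSO, 3.44 to 5.25 CPM at 2.5 µM and 13.6 to 17.3 CPM at 125 µM, with KDR at 0 in every library. Of 6 platelet markers 5 were in the files and 0 were tested, summing to 0.367 to 1.36 CPM, with PF4 and PPBP at 0. Of 6 leukocyte markers 3 were tested. CD68 rose by 1.77 ± 0.37 on the log2 scale at 125 µM against DMSO (adjusted p = 0.0017). It had 134 reads at 125 µM and 31 with DMSO, and passed the filter through the libraries in which it was higher. LYZ fell by 0.51 ± 0.10 (adjusted p = 0.00128) and CD14 did not pass, while PTPRC and CD3E were at 0 in every library. The leukocyte sum, nearly all of it LYZ, was 2429 to 3076 CPM with DMSO, 2526 to 2873 CPM at 2.5 µM and 1861 to 2061 CPM at 125 µM. Of 6 fibroblast markers 2 were tested: PDGFRB fell by 0.92 ± 0.18 (adjusted p = 0.00118) and ACTA2 did not pass, while DCN and THY1 were at 0. The fibroblast sum was 39.97 to 46.2 CPM with DMSO, 34.3 to 44.9 CPM at 2.5 µM and 24.8 to 33.3 CPM at 125 µM. The part of these marker changes in the results of the 10 genes was not tested.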

How the data were processed

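RNA of 9 HepG2 cultures was measured, 3 per group. Per the labels' protocols, TruSeq Stranded mRNA libraries were sequenced as paired reads of 50 bases; per the series' design text, CLC Genomics Workbench aligned them to hg19 and assigned them to genes. The sources used here give neither its version nor whether counting used strand. Read counts per gene (total, unique, exon, exon-exon and intron) were deposited as whole numbers without scaling, per the file headers. RPKM values, deposited by the authors, are scaled by exon length and depth. The quantile-normalised signal that the authors also deposited was not used. File starts were taken as 0-based and 1 was added: with it, the start equalled that of GENCODE v44 on GRCh37 for 68.8% of 33415 features matched by name, against 1.16% before.

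Total gene reads were filtered with filterByExpr (minimum count 10 and total 15) and scaled by TMM. One model over all 9 libraries in 3 groups, with no covariate, was fitted by the quasi-likelihood method of edgeR (version 4.0.16, R 4.3.3). Contrasts were two-sided, p-values were adjusted by Benjamini-Hochberg over 12901 genes, and the threshold was 0.05. The common biological coefficient of variation came to 10.05%. Alternatives were limma 3.58.1 on log2(RPKM + 0.5), DESeq2 1.42.0, other scalings, filters and read classes, a replicate block, and leaving out each library. The steps were tested on simulated data. All 10 genes were named, and up to 4 of each further list, those past the threshold at 125 µM against DMSO with the smallest adjusted p. Genes and lists were chosen with earlier results of these data known. Promoter sequences are from RefSeq, and no coordinates were converted between builds. Some genes that the lists hold are counted in them but not reported here.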

Additional observations from a re-analysis of the deposited data

How the results depend on the processing

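Against DMSO at 125 µM, the 6 calls kept direction and side of the threshold in every alternative where the gene passed the filter. Leaving out each library gave 6 to 6 genes, 2 to 2 higher and 4 to 4 lower. With only the groups compared 5 were called, where F12 and F13B fell below the filter. F10 was lower as a further call on exon reads (log2 fold change -0.30, adjusted p = 0.0117) and on spliced reads (-0.31, adjusted p = 0.0196). At 2.5 µM against DMSO, 1 gene was called (0 higher, 1 lower). It became 3 (1 higher, 2 lower) without a filter and 3 (1 higher, 2 lower) on exon reads, and 0 (0 lower) with limma on RPKM, 0 (0 lower) with only the groups compared and 0 (0 lower) on spliced reads, the last chosen after seeing the data; leaving out each library gave 0 to 2, with 0 to 1 higher and 0 to 2 lower. At 125 against 2.5 µM, 4 were called lower, limma on RPKM gave 2 (2 lower), and leaving out each library gave 3 to 5, with 0 to 1 higher and 3 to 5 lower. The cause was not tested.

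With the replicate number as a block, 6 of the 10 genes were called at 125 µM against DMSO, 1 at 2.5 µM against DMSO and 4 at 125 against 2.5 µM, as without it; deviations of same-numbered libraries correlated at -0.241 to 0.184, and in 5 of 9 pairings of a library with another group the same number gave the highest correlation. Among all the genes that were called, 66.5% were higher on RPKM beside 50.5% with edgeR on total gene reads at 125 µM against DMSO. These shares of called genes were 79.2% beside 54.5% at 2.5 µM against DMSO, and 68.8% beside 50.1% at 125 against 2.5 µM. Counts over all genes at 2.5 µM against DMSO ranged from 213 without the first DMSO library to 2092 without a filter, beside 1425. At 125 against 2.5 µM they ranged from 799 without the second 125 µM library to 2337 without a filter, beside 1925, and at 125 µM against DMSO spliced reads gave 3202 beside 5180. The number of genes tested differed too, at 23556 without a filter and 9704 on spliced reads, beside 12901. F12 and F13B rest on few reads, so that their changes are known less precisely.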
